A study of Mus musculus with 13 samples.

Results

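The genes examined here encode the protein subunits of the mitochondrial ribosome. They were taken by rule from a table of raw RNA-seq counts. Taken were all protein-coding mouse genes whose symbol starts with Mrpl (named for the large subunit) or Mrps (named for the small subunit) followed by a digit. The rule used gene symbols and no measured value, and gave 78 of the 55487 gene IDs in the table, 49 Mrpl and 29 Mrps genes. They were compared between pacemaker cells of the sinoatrial node (PC), the cells that start each heartbeat, and right atrial cardiomyocytes (RACM), the neighbouring working muscle.

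Both cell types came from neonatal mice of the genotype Hcn4-GFP/Myh6-mCherry and were isolated by fluorescence-activated cell sorting. Myh6 drives mCherry in cardiomyocytes and Hcn4 drives GFP in pacemaker cells. The labels give no sex or strain and no treatment other than the sort. The tissue of several hearts was pooled for each biological replicate, so a library is a pool and not an animal. There were 3 PC and 3 RACM RNA-seq libraries, titled p0, p2 or p4 in each group, a number whose meaning the labels leave unsaid. Where a cell type has 3 values, they are given in the order p0, p2, p4. The series also holds 7 ATAC-seq samples, which were not analysed here.

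The mitochondrial ribosome translates the few proteins still encoded by mitochondrial DNA, all of them membrane subunits of the respiratory chain and the ATP synthase. Its ribosomal RNAs come from mitochondrial DNA, whereas every one of its proteins is encoded in the nucleus, made in the cytosol and imported. Part of the subunits have counterparts in the bacterial ribosome and the rest were gained in the mitochondrial lineage. Heart muscle is rich in mitochondria and depends on oxidative phosphorylation.

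The labels were checked against marker genes. The 8 pacemaker markers (among them Isl1, Tbx3, Shox2 and Hcn4) summed to between 4262 and 4311 CPM (counts normalised to the library's size, here scaled by the trimmed mean of M-values, TMM) in PC and to between 211 and 274 CPM in RACM, and all 8 were called higher in PC. Of 6 working atrial markers, 5 were called lower in PC. Library totals ran from 14141151 to 22290996 counts. Markers of other cells differed between the groups too. The 8 fibroblast markers summed to 845, 958 and 2169 CPM in PC and to 1596, 3679 and 10700 CPM in RACM. The 8 macrophage markers summed to 24.6, 8.24 and 39.2 CPM in PC and to 153, 390 and 635 CPM in RACM, and the 6 cardiomyocyte markers (such as Myh6 and Tnnt2) to 67640, 55840 and 58130 CPM in PC and to 53500, 42340 and 33410 CPM in RACM. At each p number the RACM library thus held more fibroblast and macrophage marker RNA than the PC library, and RACM p4 held the most. For the fibroblast markers the groups overlapped, with PC p4 (2169 CPM) above RACM p0 (1596 CPM). The 7 smooth muscle and pericyte markers summed higher in PC at each p number, at 661, 423 and 699 CPM in PC and 195, 264 and 597 CPM in RACM. Of these 7, 5 were higher in PC. The part of such other cells in the results that follow was not tested. In bulk libraries, fewer cells of a type and less RNA per cell cannot be told apart.

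Promoters of these genes were looked at first, since they show what the group shares at the level of sequence. RefSeq promoter windows of 300 bases (250 before and 50 after the start, build GRCm38.p6) were found for 69 of the 78 genes, 75 windows in all. Their median count of CpG was 21, against 7 over all 32851 windows, and their median GC content was 58.7% against 52.7%. Next, 3 short words were searched on both strands: GCATGCGC, read by the nuclear respiratory factor NRF1; CCGGAAGT, read by ETS factors such as GABP; and AAGATGGC, read by YY1. They stood in 10.7%, 16.0% and 16.0% of the windows of mitochondrial ribosomal protein genes and in 2.71%, 3.89% and 2.75% of all windows. At least 1 of them was present in 38.7% of the windows, against 8.83% of all windows. The CCAAT word was about as frequent in both (40.0% against 37.4%), and TATAAA was present in 6.67% against 13.6%. The SP1 word GGGGCGGGG was present in 20.0% against 11.45%. The windows compared were not matched for CpG or GC content, so the part of base composition in these shares was not tested. The stretches below lie just before the start of 5 genes and hold no annotated exon; any of the 3 words is in capitals, and each runs 5′ to 3′ on the strand of the gene. Mrps14 and Mrps12 are shown because they passed the test when the p number was a block, Mrps27 and Mrpl10 because their PC and RACM libraries did not overlap, and Mrpl22 because its libraries did. Mrps27, Mrpl10 and Mrpl22 are also among the few genes whose stretch holds one of the words. Such stretches before most genes hold none, among them the non-overlapping Mrpl20, Mrps5 and Mrpl11. For Mrps5 and Mrpl11 the stretch ends 205 and 160 bases before the start. A stretch covers at most 120 bases outside annotated exons, so the rest of the window can hold a word that the stretch lacks. The YY1 word was found in windows but in no stretch. The 5 shown are therefore no measure of how often the words occur. Their positions are chr1:160195095-160195214 (Mrps14, plus strand), chr7:28741822-28741941 (Mrps12, minus), chr13:99344706-99344785 (Mrps27, plus), chr11:97041440-97041559 (Mrpl10, plus) and chr11:58171541-58171660 (Mrpl22, plus).
Mrps14: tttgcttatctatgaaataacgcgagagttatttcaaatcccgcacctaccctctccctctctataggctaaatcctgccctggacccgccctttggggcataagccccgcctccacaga
Mrps12: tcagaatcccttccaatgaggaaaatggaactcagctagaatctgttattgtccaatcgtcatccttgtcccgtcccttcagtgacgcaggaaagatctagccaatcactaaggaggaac
Mrps27: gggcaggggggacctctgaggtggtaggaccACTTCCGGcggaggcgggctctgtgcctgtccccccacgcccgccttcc
Mrpl10: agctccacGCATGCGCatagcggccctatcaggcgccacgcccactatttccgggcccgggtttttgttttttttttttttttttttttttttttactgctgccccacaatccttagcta
Mrpl22: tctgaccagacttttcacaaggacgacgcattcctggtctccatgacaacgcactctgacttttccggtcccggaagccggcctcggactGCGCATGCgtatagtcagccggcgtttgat
The ETS word is on the opposite strand before Mrps27, and so is the NRF1 word before Mrpl22. A match is a description of the letters only. The median log2 fold change, PC over RACM, was 0.37 for the 29 tested genes with at least 1 of the 3 words and 0.36 for the 39 without. By word, it was 0.32 with and 0.42 without the NRF1 word (8 genes with it), 0.40 and 0.36 for the ETS word (12 genes) and 0.51 and 0.36 for the YY1 word (12 genes); these differences were not tested.

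Most genes of the mitochondrial ribosome had slightly higher levels in PC, but none passed the test alone. Of the 78 genes, 77 were measured well enough to be tested, and 69 of these had a positive fitted log2 fold change (PC over RACM), where 50.5% of all 18015 genes tested did. The median was 0.36 on the log2 scale, a 1.29-fold difference, against 0.01 over all genes tested. It was 0.58 without RACM p0 and 0.18 without both p4 libraries. With total-count scaling it was 0.20, where the median of all genes tested was -0.16. The counts were 0 called higher and 0 called lower in edgeR's quasi-likelihood test at an adjusted p (Benjamini-Hochberg over all genes tested) under 0.05, where 3.69% of all genes tested were called higher and 3.57% lower. The smallest adjusted p was 0.0911, and 18 genes had an unadjusted p under 0.05, a share of 23.4% beside 21.1% of all genes tested. By direction, 17 of the 77 were higher in PC and 1 lower, where 1937 of all 18015 genes tested were higher and 1867 lower. The count of 18 ran from 4 without RACM p2 to 32 without RACM p0. DESeq2 called 0 as well, with 18 at an unadjusted p under 0.05, where 22.2% of all genes tested were. With the p number as a replicate block, 3 genes were called higher in PC, Mrpl18, Mrps14 and Mrps12, and 0 lower, where 5.96% of all genes were called higher and 5.6% lower. The median fitted difference with the block was 0.38.

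**Figure D1:**
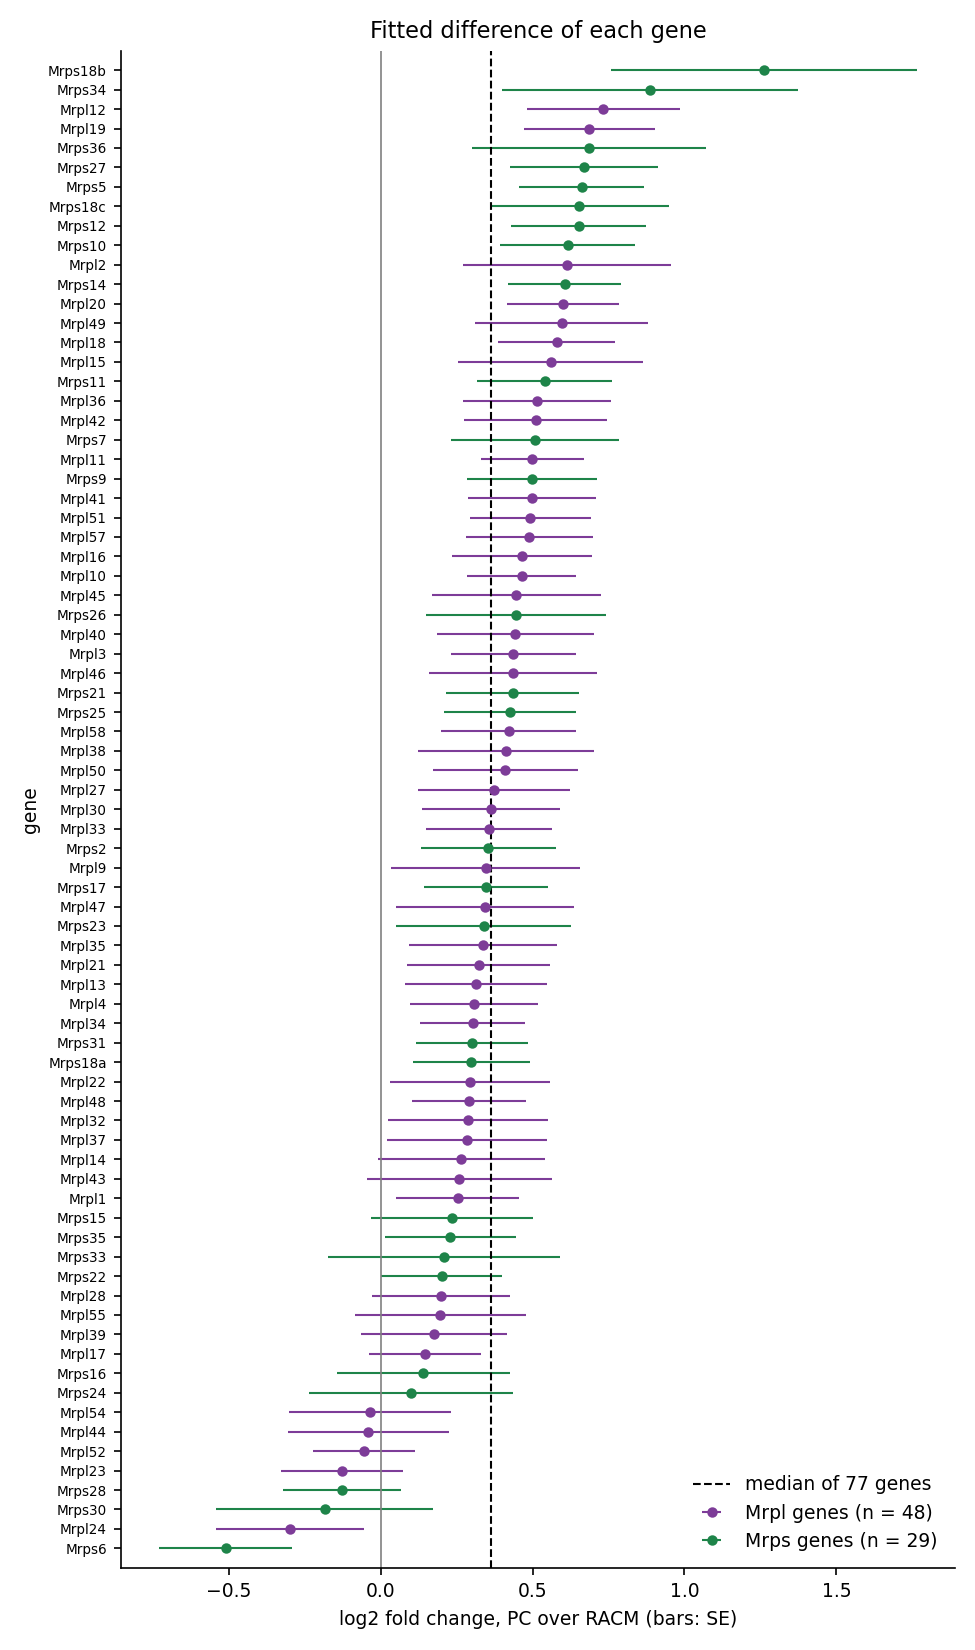
Fitted log2 fold change, PC over RACM, of the 77 tested genes, with bars of 1 standard error (SE). Genes are ordered by size and coloured by symbol, Mrpl or Mrps, and the dashed line is their median, 0.36. Values run from -0.51 (Mrps6) to 1.26 (Mrps18b), and 69 of the 77 points lie to the right of 0.

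The size of the difference was small for nearly every gene. The fitted difference was at most 0.5 in either direction for 56 of the 77 genes and reached 2-fold for 1, Mrps18b. Standard errors ran from 0.168 to 0.504, with a median of 0.23. The PC libraries were all above the RACM libraries for 18 of the 77 genes, where 13.5% of all genes tested were ordered that way, and all below for 0, where 13.4% were. Levels per kilobase of exon spanned 112-fold between the highest and the lowest tested gene, and the order of the genes was nearly the same in both cell types (Spearman's rho 0.981 over 77 genes, which share libraries and exon lengths between the 2 axes).

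The spread between libraries of one cell type was as large as the difference between the types. The 78 genes summed to 3407, 2871 and 3911 CPM in PC (3396 ± 520, SD, n = 3) and to 3235, 2245 and 2435 CPM in RACM (2638 ± 525, SD, n = 3). RACM p0 lay above PC p2, so the groups overlapped in the sum. It did so gene by gene as well: RACM p0 was above PC p2 for 51 of the 77 genes and was the highest RACM library for 67. RACM p2 was the lowest RACM library for 58 genes, PC p4 the highest PC library for 50, and PC p2 the lowest PC library for 52. The genes thus moved together from library to library within each cell type. These counts were not taken over all genes tested. The summed CPM of the nuclear oxidative phosphorylation genes and of the cytosolic ribosomal protein genes had the same order of libraries within each cell type. The pattern was therefore not particular to this group.

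**Figure D2:**
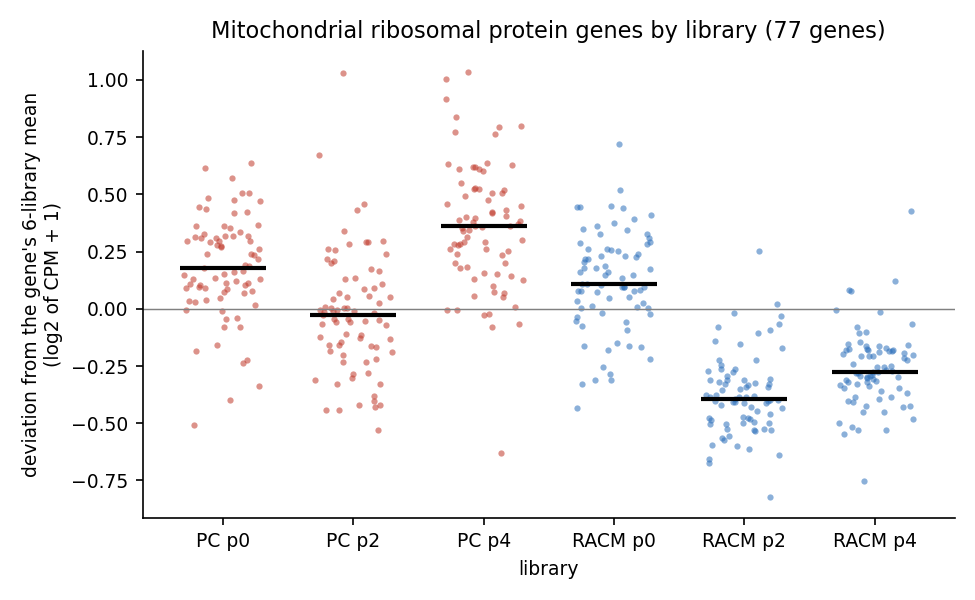
Each point is 1 of 77 genes, placed at its deviation from its own mean over the 6 libraries (log2 of CPM + 1); black bars are library medians. The medians were 0.18, -0.03 and 0.36 in PC and 0.11, -0.39 and -0.27 in RACM, so RACM p0 sits above PC p2.

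Compared within a p number, the difference was smallest at p0. The median log2 ratio of PC to RACM, on log2(CPM + 1), was 0.07 at p0, 0.38 at p2 and 0.68 at p4, where all genes tested had medians between -0.02 and 0.01. The number of genes above 0 was 48, 62 and 73 of 77. PC was higher at every p number for 40 of the 77 genes and lower at every one for 2, where 23.8% of all genes tested were higher at every p number. Each ratio compares 1 library with 1 library. On the same log2 scale, the fibroblast markers had median ratios of -0.84, -1.95 and -2.02, the macrophage markers of -2.35, -4.96 and -3.77, and the cardiomyocyte markers of 0.04, 0.26 and 0.72; their part in the pattern was not tested.

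Among the large subunit genes, 43 of 48 tested had a positive difference, with a median of 0.36 and 0 called. With the block, 1 was called higher, where 5.96% of all genes tested were. Mrpl20, the counterpart of bacterial L20, had the smallest p. It measured 39.6, 36.2 and 37.4 CPM in PC and 27.4, 20.9 and 26.4 CPM in RACM. The 3 PC libraries lay close together and all above RACM, and the fitted log2 fold change was 0.60 ± 0.18 (SE; edgeR, adjusted p = 0.0911). Mrpl19, counterpart of bacterial L19, measured 30.2, 28.6 and 30.0 CPM in PC and 22.8, 14.8 and 17.5 CPM in RACM, again without overlap (0.69 ± 0.22, edgeR adjusted p = 0.0972). Of its exon bases, 36.0% are shared with Gcfc2, where fragments could not be assigned to 1 gene, so its level is uncertain.

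Mrpl18 is the counterpart of the bacterial protein that binds 5S ribosomal RNA. It measured 158, 116 and 144 CPM in PC and 114, 77.9 and 88.8 CPM in RACM. Every PC library was above every RACM library, by a narrow margin between PC p2 and RACM p0, and PC was higher at each p number. The fitted difference was 0.58 ± 0.19 (edgeR, adjusted p = 0.115), and the adjusted p with the p number as a block was 0.0251. Per kilobase of exon it was the second most abundant of the group, at a mean of 83.3 CPM per kilobase over the 6 libraries. It shares 10.1% of its exon bases with Tcp1, a chaperonin subunit gene that starts 644 bases away on the other strand.

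Mrpl12 and its neighbours in the ribosome form the stalk that engages translation factors, and Mrpl12 protein is also known to bind the mitochondrial RNA polymerase. Mrpl12 measured 105, 81.8 and 148 CPM in PC and 85.0, 54.0 and 62.8 CPM in RACM. Its fitted difference of 0.73 ± 0.25 was the third highest of the group (edgeR, adjusted p = 0.125), but PC p2 lay below RACM p0. Mrpl10, which anchors the stalk, measured 28.6, 29.7 and 31.4 CPM in PC and 21.2, 20.4 and 23.6 CPM in RACM, with no overlap (0.46 ± 0.18, edgeR adjusted p = 0.175). It shares 14.05% of its exon bases with Gm11574. Mrpl11, at the base of the stalk, measured 51.5, 45.1 and 54.7 CPM in PC and 39.6, 33.5 and 34.0 CPM in RACM, also with no overlap (0.50 ± 0.17, edgeR adjusted p = 0.122). All 3 stalk genes were therefore higher in PC at each p number, with none called.

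In other large subunit genes the libraries overlapped or lay close together. Mrpl22, a protein that lines the exit tunnel, measured 16.4, 15.7 and 18.7 CPM in PC and 17.9, 10.4 and 13.2 CPM in RACM, so that RACM p0 lay within the PC range (0.29 ± 0.26, edgeR adjusted p = 0.601). Mrpl34, a small protein with a bacterial counterpart and among the 4 highest per kilobase (64.9 CPM per kilobase), measured 49.0, 38.8 and 42.7 CPM in PC and 38.1, 33.3 and 34.3 CPM in RACM. Its groups just failed to overlap, and the fitted difference was 0.30 ± 0.17 (edgeR, adjusted p = 0.375). Mrpl24, counterpart of a bacterial protein at the tunnel exit, had the lowest value among Mrpl genes, at 20.9, 14.1 and 18.4 CPM in PC and 26.8, 18.3 and 20.6 CPM in RACM (-0.30 ± 0.24, edgeR adjusted p = 0.559). Its groups overlapped, and 26.3% of its exon bases are shared with Rrnad1.

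Mrpl53 could not be measured. It was listed with 0 counts in all 6 libraries, while 88.0% of its exon bases are shared with Gm42688 and Ccdc142os, and per the file headers no option was set to count fragments that overlap several genes. Its 0 is therefore no measure of expression.

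Among the Mrps genes, 26 of 29 had a positive difference, with a median of 0.43 and 0 called. With the block, 2 were called higher, where 5.96% of all genes tested were. The split follows the symbol, so Mrps30 and Mrps36 are counted here although neither is now held to be a small subunit protein. Mrps14, a protein of the head of the small subunit, measured 51.3, 49.4 and 63.0 CPM in PC and 35.9, 30.7 and 40.9 CPM in RACM. Both groups were highest at p4 and lowest at p2, and they did not overlap. The fitted difference was 0.61 ± 0.19 (edgeR, adjusted p = 0.0915), and the adjusted p with the p number as a block was 0.0406. Mrps12, the decoding-centre protein whose bacterial counterpart is known for streptomycin resistance, measured 43.2, 34.5 and 53.4 CPM in PC and 30.5, 22.4 and 30.4 CPM in RACM. Its groups did not overlap either (0.65 ± 0.22, edgeR adjusted p = 0.122), and the adjusted p with the block was 0.0432. Mrps14 and Mrps12 share no exon bases with another gene.

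Mrps5, which lies at the entry of the messenger RNA channel, measured 31.3, 37.9 and 47.2 CPM in PC and 26.1, 25.3 and 22.1 CPM in RACM (0.66 ± 0.21, edgeR adjusted p = 0.0950). Its lowest PC library was above its highest RACM library. Mrps27, a pentatricopeptide repeat protein without a bacterial counterpart, measured 31.5, 30.1 and 51.9 CPM in PC and 26.3, 21.7 and 23.5 CPM in RACM (0.67 ± 0.24, edgeR adjusted p = 0.147). PC p4 stood well above the other PC libraries there, and 24.2% of the exon bases are shared with 6430562O15Rik.

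**Figure D3:**
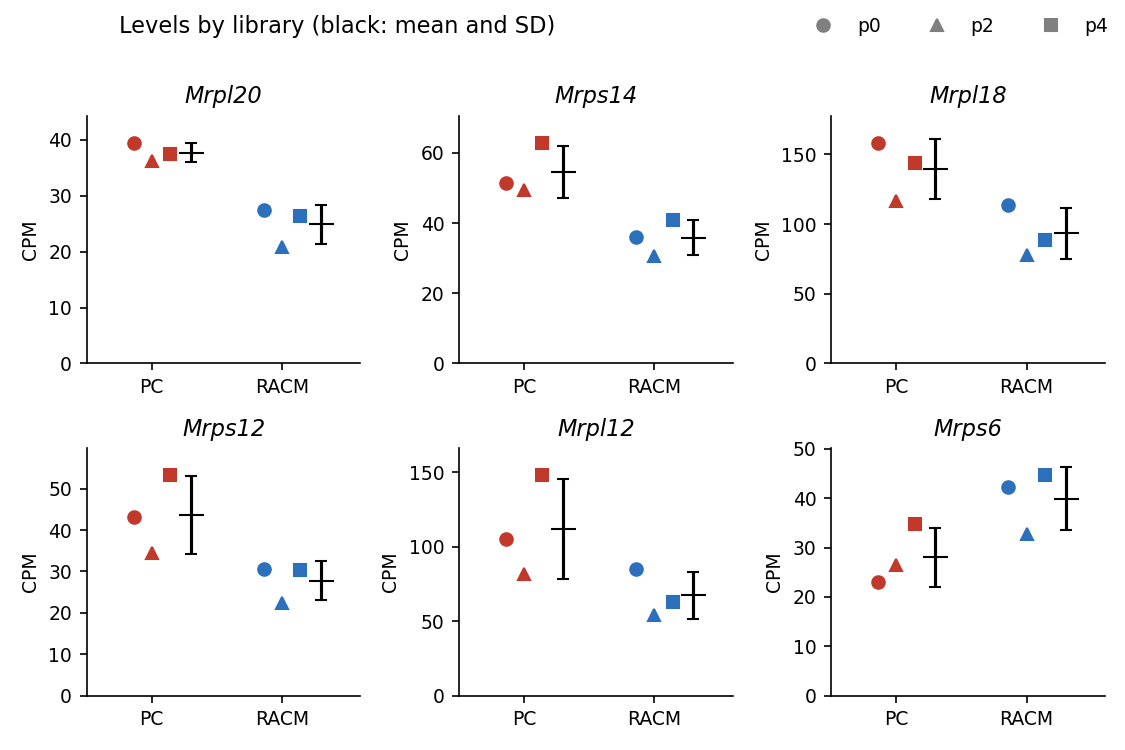
CPM of 6 genes in each library, with circles for p0, triangles for p2 and squares for p4, and the mean and SD of 3 libraries in black; axes start at 0. PC and RACM do not overlap for Mrpl20, Mrps14, Mrpl18 and Mrps12, whereas PC p2 lies below RACM p0 for Mrpl12, and for Mrps6 PC p4 lies above RACM p2.

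Mrps21, Mrps28 and, at the other end, Mrps34, Mrps25 and Mrps30 marked the range of levels. Mrps21, the counterpart of bacterial S21, was the highest of the group at 130 CPM per kilobase over the 6 libraries. It measured 112, 90.5 and 128 CPM in PC and 106, 70.2 and 67.9 CPM in RACM, with overlap (0.43 ± 0.22, edgeR adjusted p = 0.305). Mrps28, at 70.7 CPM per kilobase, measured 46.8, 47.0 and 64.9 CPM in PC and 64.0, 49.7 and 59.8 CPM in RACM (-0.13 ± 0.19, edgeR adjusted p = 0.776). Of the 4 genes highest per kilobase, Mrps28 alone had a negative fitted value, and that value was smaller than its SE.

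Mrps34 was the lowest at 1.16 CPM per kilobase and measured 3.56, 3.44 and 2.31 CPM in PC and 1.65, 1.49 and 1.87 CPM in RACM. The groups did not overlap and the fitted difference of 0.89 ± 0.49 was the second highest of all (edgeR, adjusted p = 0.356), but 77.8% of its exon bases are shared with Mapk8ip3 and Nme3, so its level is uncertain. Mrps25, with 69.8% of its exon bases shared with Nr2c2, measured 25.0, 21.2 and 22.4 CPM in PC and 18.9, 13.6 and 18.7 CPM in RACM (0.43 ± 0.22, edgeR adjusted p = 0.318). Mrps30, whose product is now assigned to the large subunit despite its name, measured 21.9, 19.8 and 11.3 CPM in PC and 30.3, 14.3 and 15.7 CPM in RACM (-0.19 ± 0.36, edgeR adjusted p = 0.829). Its sign rested on single libraries: the fitted value was 0.06 without PC p4 and 0.24 without RACM p0.

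Mrps6 had the lowest difference of the group. It measured 22.9, 26.4 and 34.7 CPM in PC and 42.3, 32.7 and 44.7 CPM in RACM, lower in PC at each p number although PC p4 was above RACM p2. The fitted difference was -0.51 ± 0.22 (edgeR, unadjusted p = 0.0447, adjusted p = 0.223), and it was the one gene with an unadjusted p under 0.05 in this direction. Of its exon bases, 19.9% are shared with Slc5a3, an inositol transporter gene nested in the same locus, and Gm49711.

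The paralogues Mrps18a, Mrps18b and Mrps18c encode proteins related to bacterial S18 that occupy different places in the mitochondrial ribosome. In the split by evolutionary origin below, Mrps18b and Mrps18c were placed with the genes that have a bacterial counterpart, and Mrps18a with those that have none. Mrps18a measured 39.9, 29.7 and 34.0 CPM in PC and 31.6, 25.1 and 27.6 CPM in RACM (0.30 ± 0.19, edgeR adjusted p = 0.442). Mrps18b measured 2.89, 7.22 and 4.10 CPM in PC and 2.21, 1.55 and 2.16 CPM in RACM (1.26 ± 0.50, edgeR adjusted p = 0.188). Mrps18c measured 14.7, 13.7 and 23.9 CPM in PC and 13.1, 9.13 and 11.1 CPM in RACM (0.65 ± 0.29, edgeR adjusted p = 0.245). PC and RACM overlapped for Mrps18a and not for the other two. Mrps18b shares 30.5% of its exon bases with Gm16279 and Mrps18c 23.2% with Gm43511. Whether the paralogues differ from one another in their response was not tested.

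The median fitted difference varied little with the sharing of exon bases and with evolutionary origin. Over 10% of exon bases were shared with another gene for 17 of the 78 genes; the 61 others had a median log2 fold change of 0.35, with 55 above 0. The 47 genes with a bacterial counterpart had a median of 0.36, with 43 above 0, and the 30 tested genes without one a median of 0.41, with 26 above 0. The unadjusted p (edgeR) was under 0.05 for 29.8% of the former and 13.3% of the latter, beside 21.1% of all genes tested. By direction, 13 of the former were higher in PC and 1 lower, and 4 of the latter were higher and 0 lower. Of all 18015 genes tested, 1937 were higher and 1867 lower. With the block, 3 of the former and 0 of the latter were called higher, where 5.96% of all genes were. PC lay wholly above RACM for 13 and 5 of them, where 13.5% of all genes tested did. These differences were not tested. Mrps36, now known as a subunit of the 2-oxoglutarate dehydrogenase complex and kept here by the symbol rule, measured 35.0, 27.9 and 66.6 CPM in PC and 40.4, 17.7 and 22.6 CPM in RACM. The processed pseudogene Mrps36-ps1 on chromosome 17 was counted at 40.6, 33.1 and 38.8 CPM in PC and at 25.6, 11.3 and 19.7 CPM in RACM. It was above Mrps36 in PC p0 and PC p2 and below it in the other 4 libraries, so reads may be split between the copies and the level of Mrps36 is uncertain.

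Other genes that act in mitochondrial translation gave small differences, with few calls. Beside the calls in these and the later lists, 3.69% of all genes tested were called higher and 3.57% lower. With the block the shares were 5.96% and 5.6%. The 5 ribosomal subunits with other names all had a positive difference (median 0.28, 0 called). Dap3, the GTP-binding small subunit protein, measured 58.4, 55.8 and 63.2 CPM in PC and 59.3, 37.8 and 35.3 CPM in RACM (0.42 ± 0.22, edgeR adjusted p = 0.325). Ptcd3, a pentatricopeptide repeat subunit, measured 60.5, 74.8 and 60.2 CPM in PC and 59.1, 52.3 and 49.7 CPM in RACM (0.28 ± 0.17, edgeR adjusted p = 0.398). RACM p0 lay within the PC range for Dap3, and for Ptcd3 every PC library was above every RACM library by a narrow margin.

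Of the 26 genes for ribosome assembly and ribosomal RNA modification, 17 had a positive difference (median 0.15) and 0 were called; 1 was called higher with the block. The 2 genes of smallest p pointed in opposite directions, although both encode methyltransferases of the large ribosomal RNA. Mrm3 measured 12.9, 13.4 and 13.9 CPM in PC and 7.58, 4.54 and 6.63 CPM in RACM (1.10 ± 0.30, edgeR adjusted p = 0.0615, and 0.0422 with the block). Mrm1 measured 12.2, 11.5 and 18.1 CPM in PC and 24.9, 25.7 and 21.0 CPM in RACM (-0.78 ± 0.25, edgeR adjusted p = 0.100). Neither gene's libraries overlapped between the groups, and DESeq2 called both (adjusted p = 0.00973 and 0.0415).

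Of the 15 translation factors and related genes tested, 14 had a positive difference (median 0.53), 1 was called higher and 3 were called higher with the block. Tufm, the elongation factor that brings aminoacyl-tRNA to the ribosome, measured 96.0, 74.8 and 99.6 CPM in PC and 63.1, 47.2 and 48.4 CPM in RACM. Every PC library was above every RACM library, and Tufm was called higher in PC (0.77 ± 0.19, edgeR adjusted p = 0.0414). The call was lost without PC p0 (adjusted p = 0.132), PC p4 (0.105), RACM p2 (0.183) or RACM p4 (0.132) and with total-count scaling (0.0731). Lrpprc, a stabiliser of mitochondrial messenger RNA, measured 207, 157 and 187 CPM in PC and 134, 110 and 100.0 CPM in RACM (0.68 ± 0.18, edgeR adjusted p = 0.0510, and 0.0172 with the block).

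Of the 17 mitochondrial aminoacyl-tRNA synthetases, 12 had a positive difference (median 0.12) and 1 was called higher. That gene, Rars2, which charges the mitochondrial arginine tRNA, measured 26.5, 27.8 and 29.9 CPM in PC and 18.1, 16.7 and 14.8 CPM in RACM (0.77 ± 0.19, edgeR adjusted p = 0.0456). The groups were well apart, yet the call was lost with any 1 of the 6 libraries left out (adjusted p between 0.0651 and 0.173), with total-count scaling (0.0993) and with no filter on low counts (0.0638). Aars2, the alanine enzyme, measured 9.29, 13.4 and 10.8 CPM in PC and 7.99, 7.16 and 7.49 CPM in RACM (0.56 ± 0.29, edgeR adjusted p = 0.311).

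Of 11 genes of mitochondrial transcription and DNA maintenance, 6 had a positive difference (median 0.16) and 0 were called; with the block, 1 was called lower. Polg2, the accessory subunit of the mitochondrial DNA polymerase, measured 15.2, 15.1 and 15.2 CPM in PC and 29.2, 45.4 and 20.6 CPM in RACM (-1.06 ± 0.29, edgeR adjusted p = 0.0596, and 0.0428 with the block). Polg, the catalytic subunit, measured 17.4, 17.1 and 14.2 CPM in PC and 19.7, 24.4 and 25.2 CPM in RACM (-0.51 ± 0.21, edgeR adjusted p = 0.205). Both subunits were lower in every PC library than in any RACM library, opposite in direction to most ribosomal protein genes.

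Of 9 regulators of mitochondrial biogenesis, 1 was called higher in PC and 1 lower. Ppargc1b, a coactivator of nuclear genes for mitochondria, measured 54.7, 43.8 and 58.7 CPM in PC and 33.2, 25.8 and 17.3 CPM in RACM, with no overlap (1.04 ± 0.25, edgeR adjusted p = 0.0410). The call was lost when any library other than RACM p0 was left out (adjusted p between 0.0564 and 0.142) and with total-count scaling (0.0665). Myc, a growth regulator that drives ribosome production, measured 14.1, 5.81 and 10.1 CPM in PC and 28.9, 41.7 and 64.9 CPM in RACM and was called lower in PC (-2.18 ± 0.38, edgeR adjusted p = 0.0117). The 6 cell cycle markers summed to 142, 97.5 and 372 CPM in PC and to 124, 181 and 738 CPM in RACM, and RACM p4 was the highest library for Myc, for these markers and for the fibroblast markers; their part in the difference was not tested. Without both p4 libraries the adjusted p of Myc was 0.0540.

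The mitochondrial ribosome genes were set beside the respiratory chain genes and the cytosolic ribosome. Nuclear genes of oxidative phosphorylation encode subunits of the respiratory complexes and the ATP synthase. They had a positive difference in 78 of 82 tested, with a median of 0.67. Of these, 11 were called higher and 1 lower, and 49 and 1 with the block. Over all genes tested, the shares were 3.69% higher and 3.57% lower, and 5.96% and 5.6% with the block. Cytosolic ribosomal protein genes, which encode the other ribosome of the cell, had a positive difference in 14 of 82 tested, with a median of -0.18; 0 were called higher and 1 lower. The median difference of the mitochondrial ribosomal protein genes, 0.36, lay between these values. By p number, the oxidative phosphorylation genes had median log2 ratios of 0.26, 0.69 and 1.04 at p0, p2 and p4, and the cytosolic ribosomal protein genes of -0.40, -0.23 and 0.08. The order of the 3 groups was the same at each p number.

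Ratios of sums within a library do not depend on its scaling. The summed CPM of the mitochondrial ribosomal protein genes was 8.85%, 9.29% and 9.22% of that of the oxidative phosphorylation genes in PC (9.12% ± 0.23, SD, n = 3) and 10.5%, 11.7% and 11.6% in RACM (11.3% ± 0.65, SD, n = 3). Relative to cytosolic ribosomal protein genes, it was 26.0%, 26.8% and 24.7% in PC (25.8% ± 1.06, SD, n = 3) and 18.6%, 17.6% and 16.2% in RACM (17.5% ± 1.24, SD, n = 3). Neither ratio overlapped between the cell types, so per unit of respiratory chain RNA the group was lower in PC and per unit of cytosolic ribosomal protein RNA it was higher. An exact permutation test of 3 against 3 libraries cannot give a 2-sided p under 0.1, and none is given. Relative to the 6 cardiomyocyte markers the groups overlapped, at 5.04%, 5.14% and 6.73% in PC and 6.05%, 5.30% and 7.29% in RACM.

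**Figure D4:**
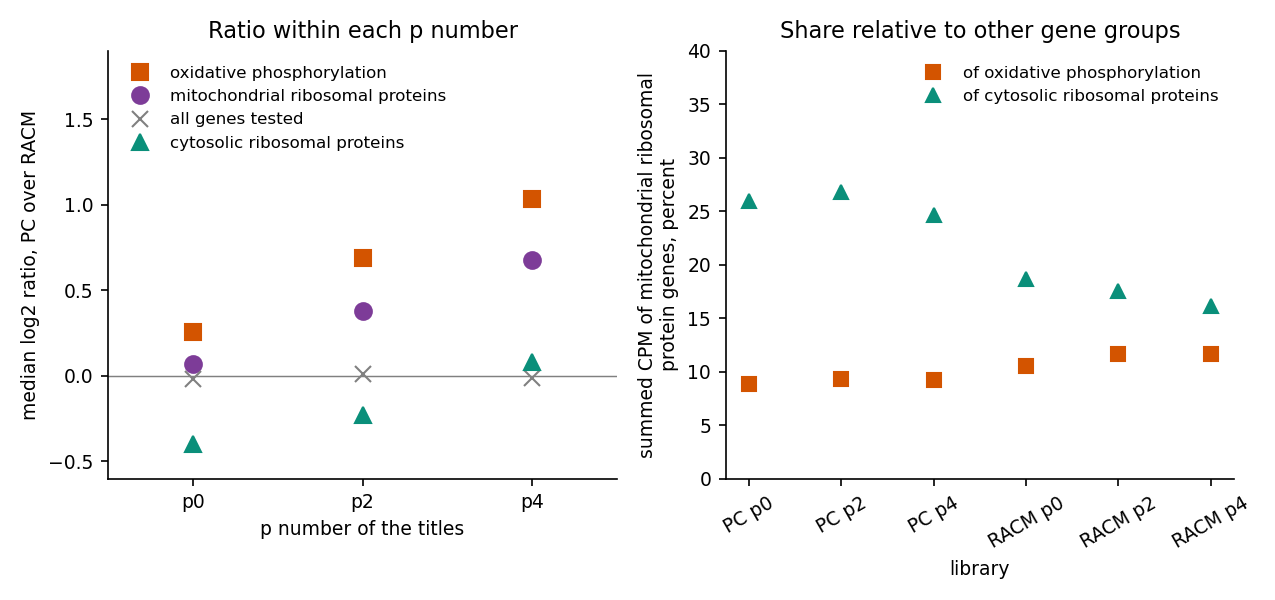
Left, median log2 ratio of PC to RACM (log2 of CPM + 1) at each p number for 4 gene groups; right, summed CPM of the mitochondrial ribosomal protein genes as a percentage of 2 other groups in each library. At every p number the oxidative phosphorylation genes are highest and the cytosolic ribosomal protein genes lowest except at p4, where the latter (0.08) lie just above all genes tested (-0.02); on the right, PC and RACM do not overlap for either percentage.

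Many mitochondrial ribosomal protein genes share a start region with another gene. A protein-coding gene started within 1000 bases on the opposite strand for 32 of the 78 (41.0%), compared with 14.8% of the 13168 protein-coding genes tested. Mrps11 and Mrpl46 are each other's partner, with starts 412 bases apart. Mrps11 measured 17.3, 19.9 and 21.0 CPM in PC and 12.8, 12.1 and 15.1 CPM in RACM, and Mrpl46 20.8, 14.1 and 24.5 CPM in PC and 18.1, 12.4 and 13.6 CPM in RACM. Their fitted differences were alike, 0.54 ± 0.22 and 0.44 ± 0.28 (edgeR, adjusted p = 0.200 and 0.431). Their exons overlap in part, and fragments there could not be assigned to 1 gene.

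For 28 genes the partner was tested and was not itself a mitochondrial ribosomal protein gene. These 28 had a median log2 fold change of 0.47, with 26 above 0, whereas their partners had a median of -0.19, with 6 above 0, and 25 of the 28 partners were below the gene they are paired with. No partner was called, and their values ran from -0.98 (Eme1, beside Mrpl27) to 0.55 (Ndufs6, beside Mrpl36). The smallest adjusted p was 0.0648, for Rab6a, a Golgi trafficking GTPase (0.52 ± 0.14, edgeR), which starts 891 bases from Mrpl48. Among the 3 partners with the highest values, Ndufs6 and Ndufb5 are themselves subunits of respiratory complex I. Beside Mrps12, the synthetase gene Sars2, whose start is 172 bases away, had a difference of -0.15 ± 0.34, and beside Mrps27 the gene Ptcd2, 81 bases away, had -0.17 ± 0.30 (edgeR, adjusted p = 0.861 and 0.812). The 1918 other protein-coding genes tested that have such a partner had a median of 0.04, with 54.4% above 0.

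**Figure D5:**
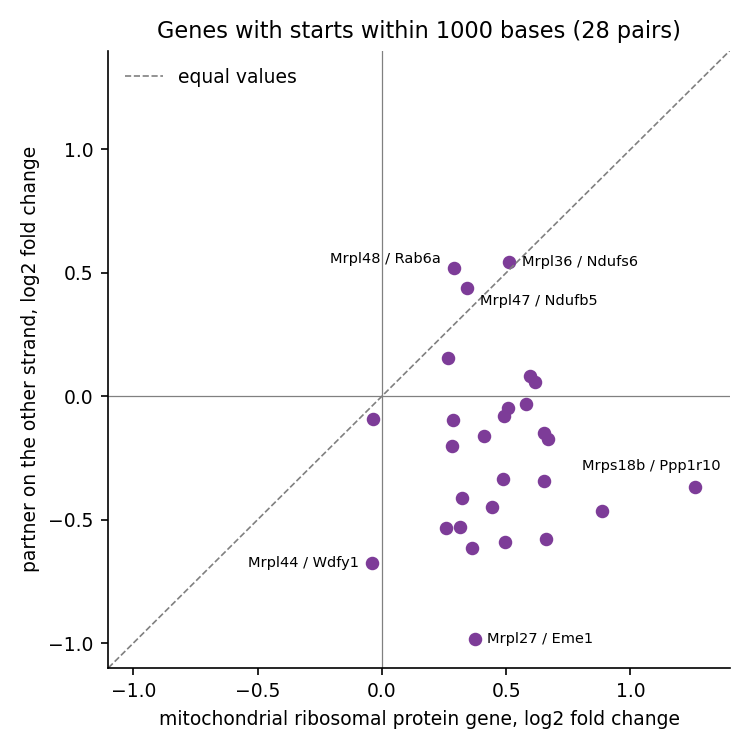
Log2 fold change, PC over RACM, of 28 mitochondrial ribosomal protein genes (horizontal) and of the protein-coding gene that starts within 1000 bases on the other strand (vertical); the dashed line marks equal values. Of the 28 points, 25 lie below the line, and the 6 above 0 on the vertical axis include Ndufs6 and Ndufb5.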

How the data were processed

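The authors deposited 1 table of raw counts of fragments per gene, made with featureCounts 2.0.1 over mm10 exons with paired reads and no strand option, per the file headers. Per the submitters' processing notes, Trimmomatic, HISAT2 and edgeR were also used (no versions given). Per the labels' protocols, cDNA came from an Ovation amplification kit. Antisense and overlapping genes cannot be told apart without strand.

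Gene IDs were matched to symbols (55141 of 55487). Genes passing filterByExpr (minimum count 10, minimum total count 15) entered the 2-sided quasi-likelihood test of edgeR 4.0.16 (R 4.3.3) after TMM scaling; p-values of the 18015 genes tested were adjusted by Benjamini-Hochberg and called under 0.05; the test was checked on simulated data. DESeq2 1.42.0 was an alternative. CPM values use TMM-scaled library sizes. All 6 count columns were used.

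Libraries of the same p number deviated together: correlations of deviations from the group means were 0.156, 0.234 and 0.237, each library correlating best with its own number. This pairing comes from the data and not from the labels. The labels do not state that libraries sharing a number share a pool.

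Genes were named by rule: members called, the 4 highest and 4 lowest per kilobase, the 3 highest and 3 lowest fold changes, the 4 smallest p-values not called, the Mrps18 paralogues and unmeasured members, and 2 genes of smallest p in each other list. Others were named after their values were seen. The members and lists were chosen with earlier results of these data known.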

Additional observations from a re-analysis of the deposited data

How the results depend on the processing

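The median log2 fold change of the group kept its sign under every alternative run, from 0.18 without both p4 libraries (61 of 77 above 0) to 0.58 without RACM p0 (74 above 0). With total-count scaling it was 0.20 with 66 above 0, while the median of all genes moved to -0.16. The count of these genes called higher went from 0 to 3 with the p number as a replicate block (Mrpl18, Mrps14 and Mrps12) and to 1 with no filter on low counts (Mrpl12, adjusted p = 0.0282); leaving out 1 library gave 0 to 1 (Mrpl41 without RACM p0, adjusted p = 0.0410). It stayed 0 under the others, and the count called lower was 0 under every alternative run. Over all genes, 1309 were called (665 higher and 644 lower), 2339 with no filter, 2304 by DESeq2, 2082 with the replicate block, 734 without both p4 libraries, and between 511 (without RACM p2) and 1338 (without RACM p0) with 1 library left out. With total-count scaling the split was 468 higher and 849 lower. Mrps30 changed sign without PC p4 (0.06) and without RACM p0 (0.24), in a range of -0.38 (without RACM p2) to 0.24 with 1 library left out. Polg2 was called lower with total-count scaling (-1.24, adjusted p = 0.0400), with no filter (0.00833), by DESeq2 (0.00865), with RACM p4 left out (0.0235) or both p4 libraries left out (0.0467), and Lrpprc higher with no filter (0.0216), by DESeq2 (0.00974) and without RACM p0 (0.0405). Without both p4 libraries, Tufm (adjusted p = 0.209), Rars2 (0.249) and Ppargc1b (0.159) were not called. The cause of these changes was not tested. The lowest tested gene had 262 counts over the 6 libraries, and the thinly counted Mrps18b and Mrps34 had the highest standard errors (0.50 and 0.49, where the median was 0.23). The p-values measure the spread between these pools.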
